A study of Rattus norvegicus with 4 samples.

Results

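The open chromatin sites around Jun and Fos, the genes of the AP-1 subunits c-Jun and c-Fos, were examined in rat Schwann cells that overexpressed an antisense RNA to the Egr2 promoter. The members were all peaks of the 4 deposited ATAC-seq peak lists that lay wholly within chr5:113500000-114500000, the interval holding Jun near 114.01 Mb, or within chr6:108800000-109800000, the interval holding Fos near 109.30 Mb (build rn6). Peaks that shared at least 1 bp were merged into 1 region. This gave 28 regions around Jun and 60 around Fos, 88 of the 58879 regions of the whole series. No peak crossed an edge of either interval.

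Primary rat Schwann cells of sciatic nerve were grown with forskolin and heregulin-β1 and infected for 48 h, in the presence of polybrene, either with a lentivirus that overexpressed the Egr2 antisense RNA (Lenti-AS, n = 2) or with a control lentivirus that carried GFP (Lenti-GFP, n = 2). Each library was made from 100000 cells and was described as a biological replicate. The antisense RNA was supplied from a virus on top of any endogenous transcript. Both groups carried a virus, so uninfected cells form no part of the comparison. Per the study's methods the antisense RNA was cloned into a DsRed lentiviral vector, whereas the control was a GFP vector. The groups thus differed in vector as well as in the antisense RNA. ATAC-seq (assay for transposase-accessible chromatin) reads DNA fragments cut by a transposase where chromatin is open, so a peak marks an open site and not the transcription of a nearby gene. The peak lists name no genes, and the cell type was not checked against marker genes here.

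Jun and Fos encode basic leucine zipper proteins that pair to form the transcription factor AP-1. Both are immediate early genes, which are induced within minutes by growth factors and stress. In Schwann cells c-Jun drives the repair state that follows nerve injury and opposes Egr2, the master regulator of myelination. In the reference gene order Jun lies between Mysm1, a histone H2A deubiquitinase gene, and Fggy, a gene of a carbohydrate kinase. Fos is followed by Jdp2 and Batf, which encode further leucine zipper partners of Jun proteins. That order came from a later assembly (GRCr8) and was used for names only. No region was assigned to an exon, intron or UTR, because no rn6 annotation was used here.

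Each peak in the lists carries a fold enrichment of its summit over the local background. MACS2 calculates fold enrichment from the pileup of fragments at the summit and a background estimated from the surrounding DNA. No input library is among the samples, so this background was taken to include fragments of open sites close by in the same library. Pileup and background were both recovered from the deposited fold and −log10 p by assuming the MACS2 default calculation. In it 1 is added to each before the ratio is taken. Fold values were compared as percentiles within each list, from 0 for the weakest peak to 100 for the strongest, because the libraries differed in depth. The lists held 54289 and 35646 peaks for Lenti-GFP replicates 1 and 2, and 43312 and 46125 peaks for Lenti-AS replicates 1 and 2. The genome-wide background ranged from 1.98 to 4.99 fragments and was highest in Lenti-GFP replicate 1. The median pileup over the 31790 regions present in all 4 lists ranged from 41 in Lenti-GFP replicate 2 to 80 in Lenti-GFP replicate 1.

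The number of open sites in either interval did not separate the groups. The Jun interval held 23 and 14 peaks in the Lenti-GFP lists and 19 and 23 in the Lenti-AS lists. The Fos interval held 56 and 41 peaks in the Lenti-GFP lists and 51 and 54 in the Lenti-AS lists. The groups overlapped in both intervals, with the lowest number in Lenti-GFP replicate 2. The Lenti-AS mean was higher by 2.5 peaks around Jun and by 4 around Fos, and a two-sided exact permutation test gave p = 1 for each. With 2 libraries against 2 the smallest exact p is 0.333, so no permutation test of a single value in this design can pass 0.05. Without Lenti-GFP replicate 2 both differences changed sign, to -2 and -3.5 peaks.

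Open sites were denser around Fos than around Jun. The 60 regions around Fos were matched or exceeded in 81 of 2608 tiles of 1 Mb that held at least 1 region (3.11%), whereas the 28 of Jun were matched or exceeded in 897 (34.4%), against a median of 20 regions per tile. In the Fos interval 38 of 60 regions were present in all 4 lists (63.3%), and in the Jun interval 14 of 28 (50%), compared with 54% over the series. All 13 regions that were absent from a single list were absent from Lenti-GFP replicate 2, the shortest list. Over the series this held for 5810 of 7778 such regions. Of the 13 regions found in a single list, 7 belonged to Lenti-GFP replicate 1, the longest list, compared with 8800 of 12254 over the series.

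**Figure D1:**
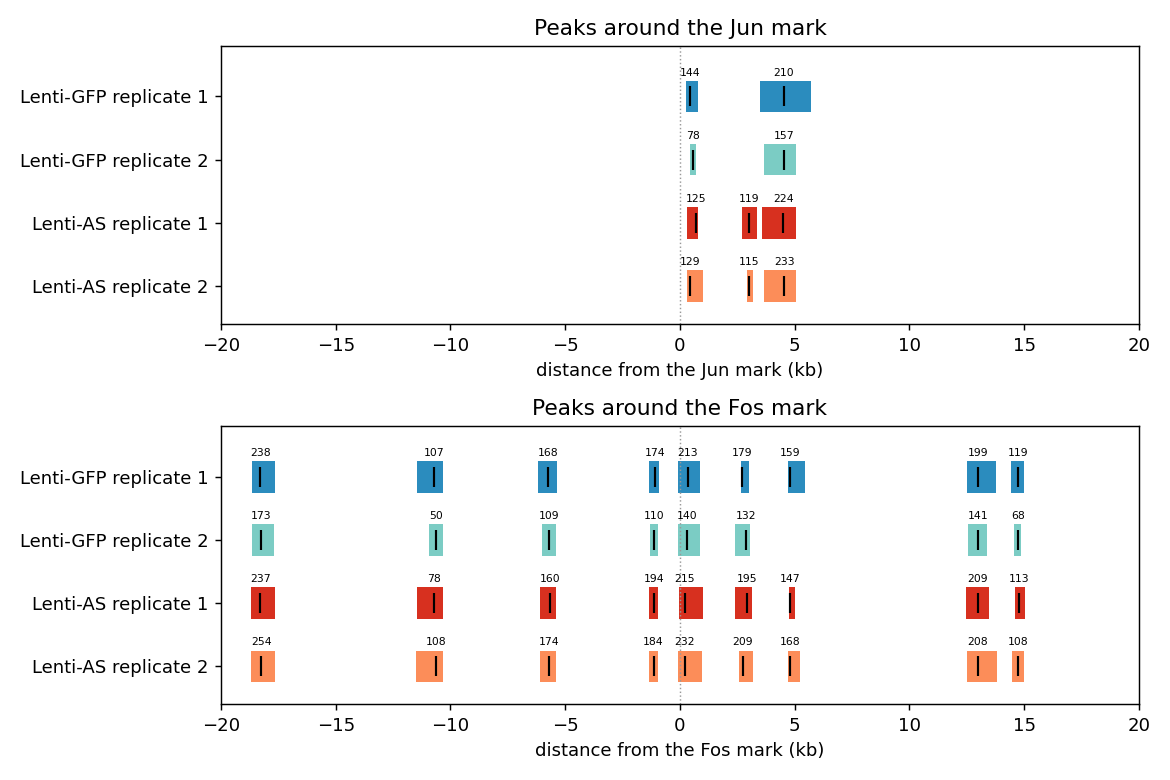
Peaks within 20 kb of the Jun mark (top) and the Fos mark (bottom) in each of the 4 libraries, against distance in kb. Bars span the called peaks, black ticks are summits and the numbers above are fragments piled up at the summit; the second Jun site appears in the Lenti-AS lists only, and the Fos site nearest 5 kb is missing from Lenti-GFP replicate 2.

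At the Jun gene 3 sites lay within 10 kb of the mark, and the group difference in peak presence was at the middle one. The first, chr5:114010283-114010984, began 0.283 kb past the mark. Its summit pileup was 144 and 78 fragments in the Lenti-GFP libraries and 125 and 129 in the Lenti-AS libraries. The strongest, chr5:114013490-114015712, was 2223 bp wide, the widest region of the interval, with pileups of 210 and 157 in Lenti-GFP and 224 and 233 in Lenti-AS. Its pileup ranked 15th among the 31790 regions in all 4 lists, by mean percentile. Between them, chr5:114012717-114013341 was called in both Lenti-AS lists, with pileups of 119 and 115 and folds of 1.91 and 1.7, and in neither Lenti-GFP list.

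At the Fos gene 5 sites within 10 kb of the mark were open. Pileups at the site over the mark, chr6:109299909-109301010, were 213 and 140 fragments in Lenti-GFP and 215 and 232 in Lenti-AS. At chr6:109298661-109299106 they were 174 and 110 against 194 and 184. At chr6:109302383-109303172 they were 179 and 132 against 195 and 209. All 3 sites were thus among the heavily covered regions, ranking 61st, 837th and 302nd by pileup. The site before these, chr6:109293813-109294622, had pileups of 168 and 109 against 160 and 174. The last, chr6:109304714-109305440, had 159 in Lenti-GFP replicate 1, 147 and 168 in Lenti-AS, and no peak in Lenti-GFP replicate 2.

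In spite of these pileups, several sites at both genes sat at the bottom of the fold ranking in every list that held them, while the strongest Jun site and chr6:109293813-109294622 ranked higher, with values given below. The first Jun site had fold percentiles of 0.356 and 0.0575 in Lenti-GFP and 0.202 and 0.205 in Lenti-AS. The site over the Fos mark had 0.845 and 0.456 against 0.419 and 0.567. The groups overlapped at both. A fold percentile under 1 in all 4 lists was found at 1 region around Jun and 3 around Fos, compared with 60 regions in the series, which is 0.189% of those present in all 4 lists. The 4 members were the first Jun site and the 3 Fos sites from 109298661 to 109303172.

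The local background at the same sites was among the highest in the genome. At the first Jun site it was 72.3 and 37.4 fragments in Lenti-GFP and 59.8 and 62.5 in Lenti-AS, and at chr6:109302383-109303172 it was 112 and 61.3 against 107 and 117. These Fos and Jun sites ranked 8th and 55th of 31790 regions by mean background percentile. A background percentile above 99 in all 4 lists was reached by 2 regions around Jun and 3 around Fos, compared with 251 regions or 0.79% of the series. The neighbouring sites at each gene share fragments in this background, so they are not independent of one another. Across the 52 members in all 4 lists, fold percentile and background percentile had a Spearman correlation of -0.302, with 0.0593 for the 14 Jun regions and -0.375 for the 38 Fos regions, and across all 31790 regions of -0.169. Both measures come from the same libraries, and fold is calculated from the background, so these are descriptions only.

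**Figure D2:**
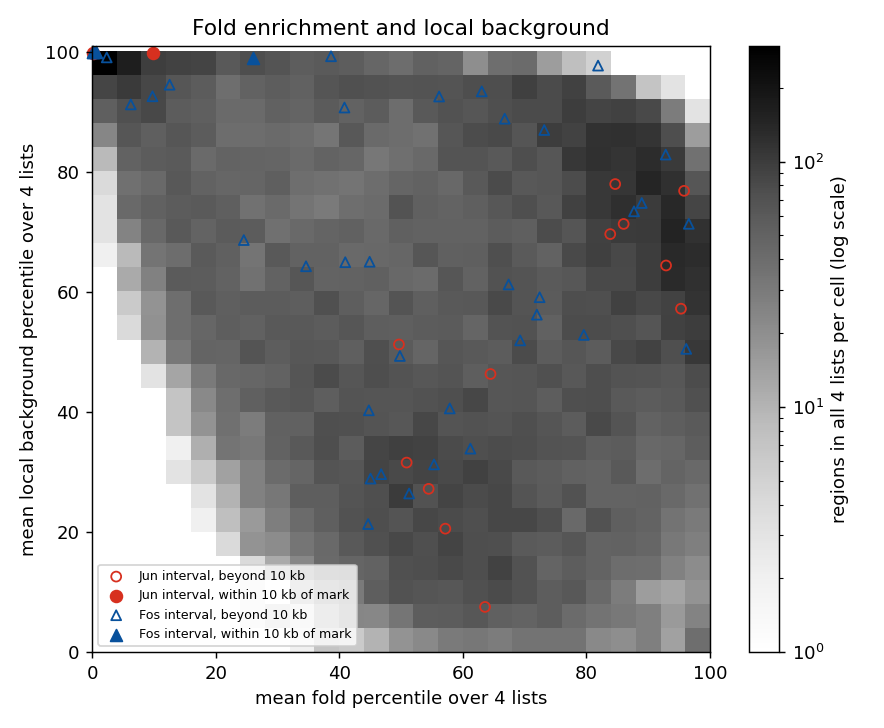
Mean fold percentile (x axis) against mean local background percentile (y axis) over the 4 lists, for 31790 regions (grey cells, log scale) and for the 14 Jun and 38 Fos regions present in all 4 lists. Filled symbols are sites within 10 kb of a mark; all 6 sit along the upper edge, and 4 of them in the upper left corner.

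The fold percentiles of the groups overlapped at the site with the highest mean fold percentile near each gene. At the strongest Jun site it was 6.36 and 12.7 in Lenti-GFP and 9.17 and 11 in Lenti-AS. The means were 9.54 ± 4.49 (SD, n = 2) and 10.1 ± 1.27 (SD, n = 2), and the exact permutation p was 1. At chr6:109293813-109294622, the site near Fos with the highest fold percentile, the values were 25.3 and 26.6 against 24.3 and 28, with means of 25.9 ± 0.946 and 26.2 ± 2.59 (SD, n = 2 each) and an exact permutation p of 1. At each site the difference between means was smaller than the SD within either group. Both Lenti-AS values lay between the Lenti-GFP values at the Jun site, and the reverse held at the Fos site. At chr6:109298661-109299106 the groups did not overlap, with 0.0912 and 0.0463 in Lenti-GFP and 0.262 and 0.116 in Lenti-AS, a difference of 0.12 points at the bottom of the ranking (exact permutation p = 0.333).

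Over the intervals the median difference in fold percentile, Lenti-AS minus Lenti-GFP, was 0.38 points for the 14 Jun regions and 0.387 for the 38 Fos regions in all 4 lists. The median over the series was 1.96 points. Neither sign was stable. The Jun median became -1.62 when peaks were ranked by −log10 p, -2.57 when ranked by summit pileup and -0.332 without Lenti-GFP replicate 1. The Fos median became -1.12 with equal list sizes, -1.19 with ranks over regions in all 4 lists, -0.352 without Lenti-GFP replicate 2 and -0.0976 without Lenti-AS replicate 1. Both Lenti-AS percentiles exceeded both Lenti-GFP percentiles at 8 of these 52 regions (15.4%), compared with 26.7% over the series. They were both lower at 7 (13.5%), compared with 11.9%.

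**Figure D3:**
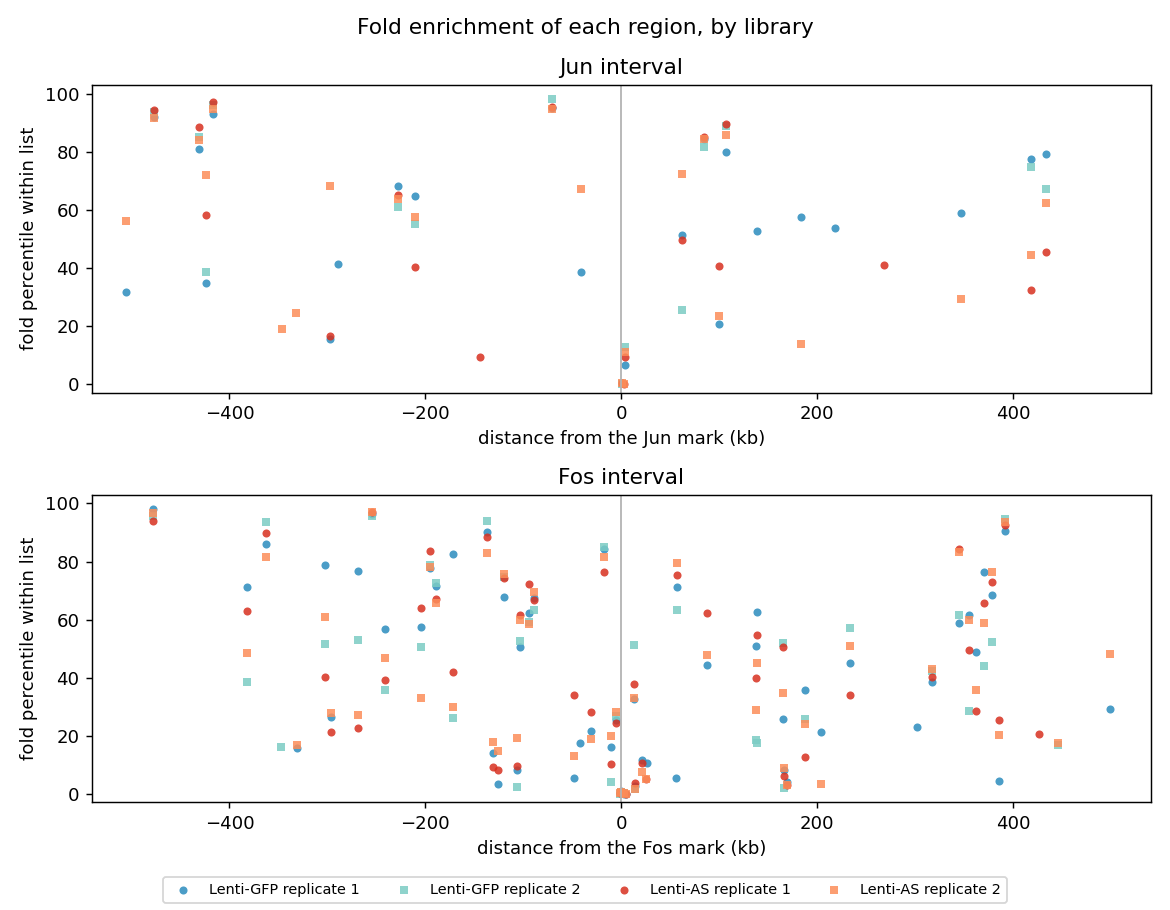
Fold percentile of each region within its list (y axis, 0 weakest to 100 strongest) against distance from the Jun mark (top) and the Fos mark (bottom) in kb, 1 point per library. Several sites at the marks lie near 0, with the strongest Jun site at 6.36 to 12.7 and a Fos site at 24.3 to 28, while sites above 90 lie 70.4 kb or more from the Jun mark and 137 kb or more from the Fos mark.

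The highest fold percentiles in both intervals belonged to sites far from the genes. In the Jun interval the leading region was chr5:113938454-113939576, 70.4 kb before the mark, with fold percentiles of 95.1 and 98.1 in Lenti-GFP and 95.3 and 94.7 in Lenti-AS. It was followed by chr5:113592568-113593511, chr5:113532470-113533215, chr5:114117270-114118199 and chr5:113578299-113579360. In the Fos interval chr6:109044319-109045461, 254 kb before the mark, had 96.5 and 95.6 against 97 and 97.2, so that both Lenti-AS values lay above both controls. The next were chr6:108820503-108821574, chr6:109691690-109692751, chr6:109161692-109162776 and chr6:108936214-108937266. At chr6:109161692-109162776 the fold percentile was lower in both Lenti-AS libraries, at 88.5 and 82.9 against 90.3 and 94.1.

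Larger differences in fold percentile were seen at weaker sites distant from both genes. In the Lenti-AS libraries chr6:109644760-109645812 had 84.3 and 83.2 against 58.9 and 61.5 in Lenti-GFP, and chr5:113585976-113586455 had 58.3 and 71.8 against 34.8 and 38.6. In the other direction chr6:109029968-109030892 had 22.6 and 27.1 against 76.6 and 52.8, and chr5:114427814-114428364 had 32.2 and 44.3 against 77.3 and 74.9. The groups did not overlap at any of these 4 regions, each with an exact permutation p of 0.333, the smallest possible. The remaining regions with the largest separated differences were chr6:109678673-109679827 and chr6:109356618-109357463, higher by 14.2 and 10.1 points in Lenti-AS. Lower values were found at chr5:114443583-114444157 (a difference of -19.2 points) and chr6:109487597-109488312 (-12.6 points).

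No region of either interval was called in the test across the series. The limma test on normal scores of the fold ranks, with Benjamini-Hochberg adjustment over 46625 regions in at least 2 lists, called 0 of 75 members higher and 0 lower, against a background of 0% in each direction. At an unadjusted p under 0.05 it gave 0 members higher and 2 lower, chr6:109029968-109030892 and chr5:114427814-114428364, with adjusted p of 0.608 and 0.665. Over the series 1163 regions were higher and 1434 lower at that unadjusted threshold. With both directions together this was 2.67% of the members and 5.57% of the series. These p-values rest on the spread between 2 libraries a group, which limma moderates towards a spread pooled over all regions.

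Presence of a peak in one group only was rare in both intervals. Of the 88 regions 2 were called in both Lenti-AS lists and in no Lenti-GFP list (2.27%), compared with 1.8% over the series, and 0 were called in both Lenti-GFP lists and no Lenti-AS list, compared with 1.21%. The 2 were the middle Jun site described above and chr6:109325457-109325858, which lay 25.5 kb past the Fos mark with folds of 3.25 and 3.06 and pileups of 30 and 36. Both had a control peak close by. The widest Jun region, in all 4 lists, began 148 bp after the first, and a peak of Lenti-GFP replicate 1 alone, chr6:109325976-109326464 with a pileup of 47 and a fold of 2.98, began 117 bp after the second. The fold percentiles of the 2 regions, 0.107 and 0.0466 at the Jun site and 4.91 and 5.03 at the Fos site, placed both near the bottom of the Lenti-AS lists. When presence required a reciprocal overlap of 50% between the 2 Lenti-AS peaks, neither region counted.

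Pileup and background were then compared between groups separately, each divided by its median in the same library over the regions in all 4 lists. These measures were added after the values at the genes had been seen. Relative pileup was higher in both Lenti-AS libraries than in both controls at 20 of 52 members (38.5%), compared with 21.1% over the series. It was lower in both at 9 (17.3%), compared with 22.6%. Of the 20 regions, 18 lay in the Fos interval. Among the 251 regions with a background percentile above 99 in all 4 lists it was higher at 144 (57.4%) and lower at 1, with a median log2 difference of 0.27. At the site over the Fos mark relative pileup was 2.66 and 3.41 in Lenti-GFP and 3.91 and 3.8 in Lenti-AS, with means of 3.04 ± 0.532 and 3.86 ± 0.0748 (SD, n = 2 each), at an exact permutation p of 0.333. At the strongest Jun site it was 2.62 and 3.83 against 4.07 and 3.82. There the groups overlapped, and Lenti-GFP replicate 2 lay within the Lenti-AS range.

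None of the 10 sites within 20 kb of the marks and in all 4 lists passed the limma test on log2 relative pileup, although the estimate was higher in Lenti-AS at all of them, by 0.24 to 0.43 on the log2 scale. The lowest adjusted p was 0.284. That test called 0 members higher, against 0.167% of the series, and 2 members lower, against 2.27%. The 2 were again chr5:114427814-114428364, which fell by 0.78 (SE 0.2, adjusted p = 0.0105), and chr6:109029968-109030892, which fell by 0.66 (SE 0.2, adjusted p = 0.0411). In this fit limma gave every region the same SE, pooled over all regions, so it is not the spread at these sites. The pileups behind them were 48 and 29 fragments against 18 and 27 at the Jun-interval site, and 63 and 31 against 25 and 32 at the Fos-interval site. Before scaling the groups thus overlapped at the second and nearly met at the first, but unscaled pileups also follow library depth. Relative to the library medians the groups did not overlap. The values were 0.6 and 0.707 against 0.327 and 0.443 at the Jun-interval site. At the Fos-interval site they were 0.7875 and 0.756 against 0.455 and 0.525.

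Relative local background was higher in both Lenti-AS libraries at every one of the 10 sites within 20 kb of the marks. Over the site at the Fos mark it was 6.61 and 8.73 in Lenti-GFP and 13.6 and 11.5 in Lenti-AS, with means of 7.67 ± 1.5 and 12.6 ± 1.53 (SD, n = 2 each), at an exact permutation p of 0.333. At the first Jun site it was 4.8 and 6 against 8.66 and 7.06, with means of 5.4 ± 0.849 and 7.86 ± 1.13 (SD, n = 2 each), at an exact permutation p of 0.333. Both Lenti-AS libraries exceeded both controls, and Lenti-GFP replicate 1 was the lowest at each site.

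In the limma test on log2 relative local background all 10 sites rose in Lenti-AS, by 0.38 to 0.74 on the log2 scale. Adjusted p ranged from 0.00775 at chr6:109302383-109303172 (SE 0.13) to 0.0404 at chr6:109281308-109282366. Among all 52 members 12 were called higher, or 23.1%, against 5.76% of the series, and 1 lower, against 7.07%. The 2 higher members that lay farther out were at 94.4 and 120 kb before the Fos mark, and the lower one was chr5:113585976-113586455. Neighbouring sites among the other 10 share fragments in their backgrounds, so they are not independent members of this count. Non-overlapping groups with Lenti-AS above were found at 30 of 52 members (57.7%), compared with 34.1%, and with Lenti-AS below at 6 (11.5%), compared with 29%. The excess of higher values was in the Fos interval, where the numbers were 27 and 1 of 38. In the Jun interval they were 3 and 5 of 14, and 2 of the 3 were the sites within 20 kb of the mark.

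**Figure D4:**
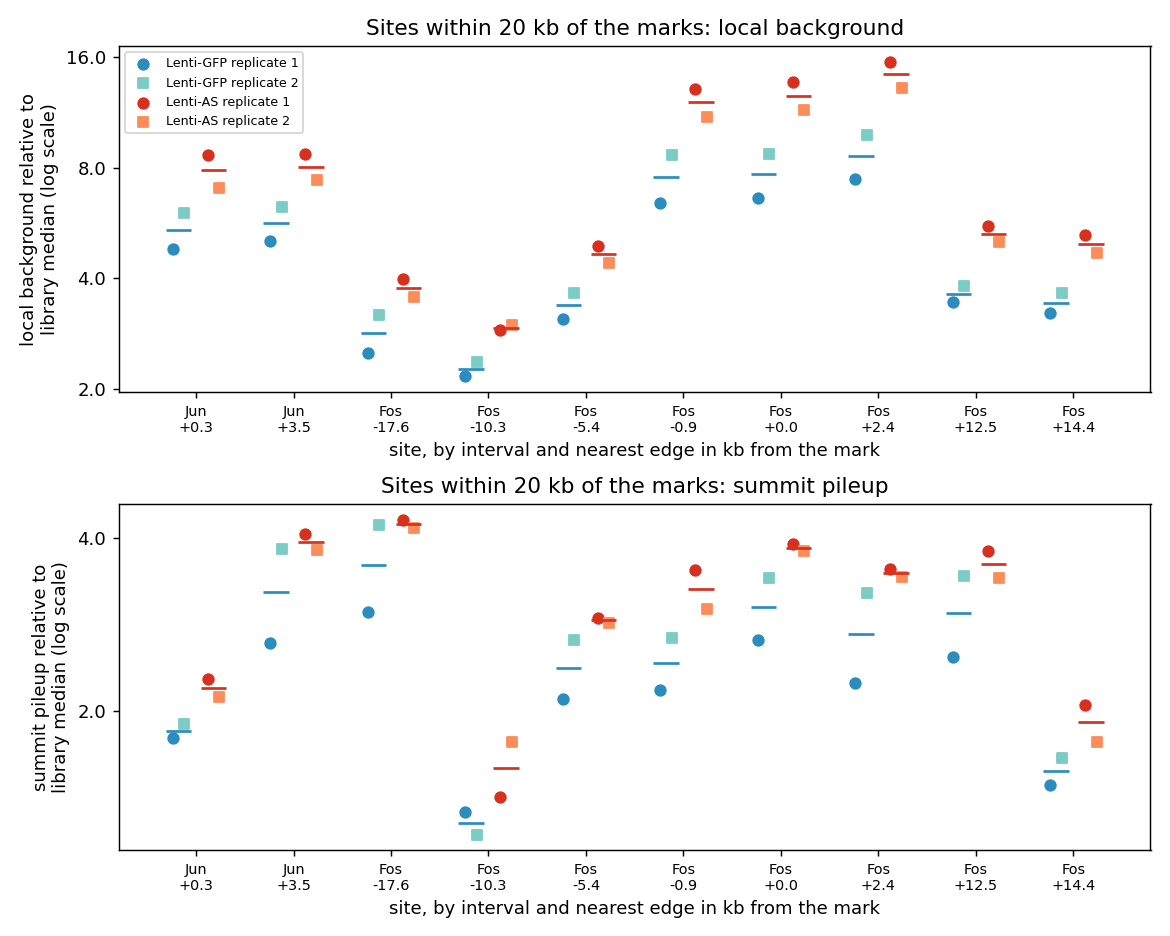
Local background (top) and summit pileup (bottom), each relative to the library's median over regions in all 4 lists, on a log scale, at the 10 sites within 20 kb of the marks that were present in all 4 lists. Points are libraries and short lines are group means (n = 2); in the top panel both Lenti-AS points lie above both Lenti-GFP points at all 10 sites.

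This difference in background was shared by heavily covered regions elsewhere. Of the 251 regions of the series with a background percentile above 99 in all 4 lists, 234 (93.2%) had a higher relative background in both Lenti-AS libraries and 0 a lower one, and 185 were called higher. Their median log2 difference was 0.46, and that of the sites within 20 kb was 0.53 around Jun and 0.54 around Fos. The number of calls also depended on the scaling and on single libraries. When the background was divided by the genome-wide background of each library in place of the median, limma called 0 of the members and 0 regions of the series in either direction. An unadjusted p under 0.05 was then found at 23 of 52 members (44.2%) and at 26.4% of the series. The difference itself was 0.44 to 0.81 on the log2 scale at the 10 sites, where the groups still did not overlap, and the lowest adjusted p was 0.164. Fewer members were called higher without Lenti-GFP replicate 1 or without Lenti-AS replicate 1. The log2 difference stayed positive at the 10 sites, at 0.246 to 0.541 and 0.336 to 0.622 respectively. These fits leave 1 library in a group, which is assumed to vary like the other group. Lenti-GFP replicate 1, the lowest library at these sites, had the highest genome-wide background and the highest median pileup, and their part in the difference was not tested.

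The difference in background was larger near the genes than farther out, though with few regions per bin and no test. Around Fos the median log2 difference was 0.54 for the 8 regions within 20 kb, 0.22 for the 18 regions from 20 to 250 kb and 0.04 for the 12 beyond. Around Jun it was 0.53 for 2 regions within 20 kb, -0.06 for 6 regions and -0.15 for the 6 beyond 250 kb. The level of the background fell along the same bins. Relative to the genome-wide background, its median around Fos within 20 kb was 10 and 11.7 in Lenti-GFP and 17.8 and 15.3 in Lenti-AS, and beyond 250 kb it was 2.9 and 2.97 against 2.94 and 2.85.

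Summit positions were compared between and within the groups. The median distance between group mean summits was 25.5 bp over the 52 members in all 4 lists, compared with 36 bp between the Lenti-AS replicates, 46 bp between the Lenti-GFP replicates and 29 bp between groups over the series. A distance between means of 2 libraries is not on the same footing as one between single libraries. Around Jun alone it was 43 bp, against 30.5 bp within Lenti-AS and 61 bp within Lenti-GFP, and around Fos 22.2 bp against 37.5 and 41.5 bp. Over the members it was 48 bp without Lenti-GFP replicate 2, 42 bp without Lenti-AS replicate 1 and 46.5 bp without Lenti-AS replicate 2. The summits of the groups did not overlap at 21 of 52 members (40.4%), a share near the 34.6% over the series. At the site over the Fos mark the summits were at 109300330 and 109300320 in Lenti-GFP and at 109300220 in both Lenti-AS libraries. At the strongest Jun site they were at 114014527 in both Lenti-GFP libraries and at 114014504 and 114014550 in Lenti-AS, on either side of the control position.

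The regions nearest the edges of the intervals were as follows. At the lower Jun edge the first region inside, chr5:113504443-113504999, was in 2 lists with folds of 3.75 to 5.74, and the first outside, chr5:113291174-113291410, was in 1 list with a fold of 3.5. At the upper Jun edge chr5:114443583-114444157 inside and chr5:114516426-114517400 outside were both in 4 lists, with folds of 5.78 to 6.7 and 7.81 to 14.7. At the Fos edges chr6:108820503-108821574 and chr6:109799159-109799657 lay inside, with folds of 8.66 to 11.6 and 3.67 to 5.28. Just outside them were chr6:108795684-108796392 and chr6:109804151-109804455, with folds of 8.58 to 11.8 and 4.55 to 4.92.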

How the data were processed

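ATAC-seq peak lists of 4 libraries of primary rat Schwann cells were used. Per the labels and the study's methods, the authors aligned reads to rn6 with Bowtie2, removed duplicates with Picard and called peaks in each library with MACS2; versions and options are not given in the sources used here, and replicates were not pooled. The deposited columns hold a fold enrichment (ratio of summit to local background, each with the pseudocount below), −log10 p and −log10 q values, a summit offset and a display score. The score was not used. The total read number per library is not in the peak lists.

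Whole-number summit pileups and local backgrounds were solved from the deposited fold and −log10 p, assuming a pseudocount of 1 on both and the upper tail of a Poisson distribution, since the options used are not stated; the p was matched within 0.001 for 100% of peaks. Peaks sharing at least 1 bp were merged (Python 3.11.15, pandas 2.3.3). The strongest peak by fold stood for its region. Fold ranks, with absent peaks at the lowest rank, were turned into normal scores and tested with limma 3.58.1 over regions in at least 2 lists (Benjamini-Hochberg, adjusted p under 0.05); relative pileup and background were tested over regions in all 4 lists. Single values were tested with exact two-sided permutation tests (scipy 1.17.1). The limma and recovery steps were tested on simulated data.

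Regions named were those within 10 kb of the marks, the 5 highest by mean fold percentile per interval, those in one group's lists only, the 3 largest separated differences in each direction per interval and those nearest the edges. Members and lists were chosen with earlier results of these data known, and other named regions after their values were seen. Marks are rounded positions, so distances are approximate. Same-numbered libraries were not paired: the labels tie no number to a shared culture, and their deviations correlated at -0.232. Start sites of other AP-1 genes and promoter motifs were not analysed here.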

Additional observations from a re-analysis of the deposited data

How the results depend on the processing

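The alternatives tried were peaks with −log10 q of at least 5, lists trimmed to equal sizes, other ranking measures, other overlap rules, blocks and each library left out. Counts of Lenti-AS-only regions went from 2 to 0 with a reciprocal overlap of 50%. Regions with both Lenti-AS fold percentiles above went from 8 to 5 when ranked by −log10 p. Those below went from 7 to 11 when ranks were taken over regions in all 4 lists, where 8 were above. The shares over the series under these settings are not given here. The difference at the lead Jun site (the site near the gene with the highest mean fold percentile), 0.526 points, became -1.98 with equal list sizes, -2.1 with ranks over regions in all 4 lists and -0.00352 at the region nearest the mark. That at the lead Fos site, 0.225, became -3.43, -3.97 and -0.157. Ranked by −log10 p the differences were 3.81 and 2.76, by summit pileup 0.0633 and 1.57, and with −log10 q of at least 5 they were 0.654 and 0.45.

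With 1 library left out, the peak difference ranged from -2 to 7 around Jun and -3.5 to 11.5 around Fos, Lenti-AS-only regions from 2 to 15, Lenti-GFP-only regions from 0 to 7, regions above from 15 to 25 and below from 13 to 23. Lead-site differences ranged from -2.65 to 3.7 at Jun and -1.6 to 2.05 at Fos. The median difference ranged from -0.332 to 1.98 in the Jun interval and -0.352 to 0.639 in the Fos interval, and the summit shift from 31.8 to 48 bp. The log2 background difference stayed positive at all 10 sites within 20 kb of the marks. It was 0.246 to 0.541 without Lenti-GFP replicate 1 and 0.441 to 0.943 without Lenti-GFP replicate 2. It was 0.336 to 0.622 without Lenti-AS replicate 1 and 0.353 to 0.863 without Lenti-AS replicate 2. Fewer libraries make one-group and non-overlap counts easier to reach. Their shares over the series with a library left out are not given here, so these counts describe the members only. In the background fits with 1 library in a group, that library is assumed to vary like the other group. Limma on fold ranks was not run with a library left out.

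With the replicate block limma on fold ranks called 0 members in either direction, and with the crossed block 0; over the series both called 0, with an unadjusted p under 0.05 at 2243 and 3971 regions. For background the replicate block gave 8 members higher and 1 lower, against 2.3% and 4.39% of the series, and the crossed block 18 and 4, against 19.1% and 15.7%. Dividing by the genome-wide background gave 0 and 0. Limma on relative pileup called 2 members lower. The 5 other ranked fits called 0 regions in the series, with 2517 to 4343 at an unadjusted p under 0.05.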
